A study of Mus musculus with 24 samples.

Results

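Interferon-stimulated genes are the genes that a cell switches on after an interferon has bound its receptor. They were followed here as a list of 39 named genes in mammary glands of aged transgenic mice, and all 39 symbols were found among the 55487 genes of the expression table. The list was set by gene name, at a time when earlier results of these data were known. Of the 39 genes, 38 reached at least 1 TPM in at least 3 libraries and were tested together with every other gene that did so, 19325 in all. The gene that did not, Oas3 (a synthetase of the 2-5A signal that activates RNase L), lay between 0.09 and 1.24 TPM. TPM is a level of transcripts corrected for transcript length and for the size of the library.

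The 24 libraries were made from total RNA of whole mammary gland, in 8 groups of 3. In 12 libraries the mice carried MMTV-rtTA/tet-op-Esr1, an inducible transgene for estrogen receptor alpha, and in the other 12 MMTV-rtTA/tet-op-CYP19A1, an inducible transgene for aromatase, the enzyme that makes estrogens from androgens. In both, the MMTV promoter, which is active in mammary epithelium and in some other cells, drives the switch protein rtTA. These are called the Esr1 and the CYP19A1 line below. In each line 3 mice were 18 months old, with 6 months of transgene induction. The rtTA switch is turned on by doxycycline, and the sample names of these mice carry the word Doxy. A further 9 mice per line were 20 months old, with 8 months of induction: 3 received no drug, 3 a tamoxifen pellet (25 mg released over 60 days, a drug that binds the estrogen receptor) and 3 a letrozole pellet (2.5 mg over 60 days, an aromatase inhibitor), placed at 18 months. The sample names of the mice without drug at 20 months carry the letters PLA, which the labels do not explain, so whether these mice had a placebo pellet is not stated; they are called untreated here. Every group carries one of the transgenes, so no comparison is with mice lacking both. The labels number the libraries as biological replicates.

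Type I interferons (the alpha and beta forms) bind IFNAR1 and IFNAR2, and the kinases JAK1 and TYK2 then start a signal through STAT2 and IRF9 to a DNA element called ISRE. Interferon gamma binds IFNGR1 and IFNGR2, and its signal acts on an element called GAS. The products include sensors of viral RNA, proteins that block viral translation, GTPases that attack microbe-containing vacuoles, and chemokines that draw T cells. Macrophages, T cells, epithelium, fibroblasts and endothelium of the gland can all respond, and RNA of whole tissue sums over them.

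The promoter windows of 5 genes are shown because their genes carry the differences described below: Ifit3, Ifit3b, Ifit1 and Ifih1 between the lines, and Cxcl9, which had the smallest adjusted p of the members between ages in the CYP19A1 line. The window of Isg15, a classical responder, is given for comparison. Each is a RefSeq window on build GRCm38.p6, from 250 bases before to 50 bases after the transcript start. Capitals mark each match to the ISRE core, TTTCNNTTTC or GAAANNGAAA on the strand shown.
Ifit3, chr19:34583279-34583578 (+ strand): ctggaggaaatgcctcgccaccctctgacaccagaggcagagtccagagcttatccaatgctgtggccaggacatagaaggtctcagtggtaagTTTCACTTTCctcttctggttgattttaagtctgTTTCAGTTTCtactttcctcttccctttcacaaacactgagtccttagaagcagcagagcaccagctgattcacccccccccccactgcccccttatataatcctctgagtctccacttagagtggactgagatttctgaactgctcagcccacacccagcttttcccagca
Ifit3b, chr19:34607707-34608006 (+ strand): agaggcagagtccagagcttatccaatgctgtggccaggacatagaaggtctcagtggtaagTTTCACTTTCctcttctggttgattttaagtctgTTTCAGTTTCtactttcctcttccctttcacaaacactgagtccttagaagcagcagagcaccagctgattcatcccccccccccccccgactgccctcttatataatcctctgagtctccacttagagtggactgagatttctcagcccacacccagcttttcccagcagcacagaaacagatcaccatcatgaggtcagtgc
Ifit1, chr19:34640639-34640938 (+ strand): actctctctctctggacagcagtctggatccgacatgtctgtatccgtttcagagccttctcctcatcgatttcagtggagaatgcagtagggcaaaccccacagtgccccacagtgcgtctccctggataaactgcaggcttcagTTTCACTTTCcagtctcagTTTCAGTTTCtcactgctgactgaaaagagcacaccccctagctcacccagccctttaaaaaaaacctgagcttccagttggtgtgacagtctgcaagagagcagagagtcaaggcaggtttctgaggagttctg
Ifih1, chr2:62646206-62646505 (- strand): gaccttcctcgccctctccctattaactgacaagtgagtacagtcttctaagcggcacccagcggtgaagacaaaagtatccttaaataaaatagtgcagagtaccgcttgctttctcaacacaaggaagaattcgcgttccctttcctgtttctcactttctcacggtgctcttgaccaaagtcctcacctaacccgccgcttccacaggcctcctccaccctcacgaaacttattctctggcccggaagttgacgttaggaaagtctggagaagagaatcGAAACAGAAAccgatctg
Cxcl9, chr5:92328030-92328329 (- strand): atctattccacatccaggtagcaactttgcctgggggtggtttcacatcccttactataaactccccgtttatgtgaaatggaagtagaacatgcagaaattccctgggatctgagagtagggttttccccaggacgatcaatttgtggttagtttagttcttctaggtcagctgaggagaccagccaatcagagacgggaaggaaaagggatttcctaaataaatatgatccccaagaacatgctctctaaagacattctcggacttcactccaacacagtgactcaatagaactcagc
Isg15, chr4:156200769-156201068 (- strand): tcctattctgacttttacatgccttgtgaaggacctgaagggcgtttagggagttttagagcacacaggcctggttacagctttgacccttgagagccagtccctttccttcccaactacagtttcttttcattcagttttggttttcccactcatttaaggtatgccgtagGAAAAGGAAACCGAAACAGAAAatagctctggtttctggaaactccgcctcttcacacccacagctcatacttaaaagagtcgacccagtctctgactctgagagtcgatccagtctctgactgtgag

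In the Ifit3 and Ifit3b windows the 2 ISRE cores carry the same letters, and the longest run identical in both windows was 169 bases. The longest run that either shared with the Ifit1 window was 13 bases, although Ifit1 also held 2 cores with those letters. Counted from the transcript start, they began at -104 and -85 in Ifit1, at -156 and -122 in Ifit3, and at -188 and -154 in Ifit3b. Isg15 had 3 overlapping cores, and Ifih1 had 1 core, which began at base 33 after its start. The Cxcl9 window held neither this core nor the GAS core, TTCNNNGAA. Of the 6 members lower with age in the CYP19A1 line, 3 held an ISRE core (Ddx58, Gbp7 and Igtp) and 4 a GAS core (Gbp7, Ifi35, Igtp and Irf1). RefSeq windows were matched for 30 of the 39 genes. Of these 30 genes, 19 (63.3%) held an ISRE core in at least one of their windows, as did 3.99% of all 27025 genes with a window of the same length. The GAS core was found in 9 of 30 genes (30%) and in 9.55% of all genes. By window, the ISRE core was in 20 of 37 windows of the members (54.1%) and in 3.44% of all windows. All 5 immunity GTPases held an ISRE core, and neither window of Ifit2 did. These matches describe letters in a window and not binding.

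The members were expressed at low to moderate levels. By mean TPM over all 24 libraries, Ifi27 stood first at 146 ± 42.1 TPM (SD, n = 24), 11 genes lay between 10 and 100 TPM, 26 between 1 and 10 TPM, and Oas3 below 1 TPM. Ifi27 encodes a small membrane protein. It was followed by Irf1, a transcription factor induced by interferon gamma, at 25.5 ± 7.64 TPM, and by Gbp2, a guanylate-binding GTPase, at 25.5 ± 8.66 TPM, which did not differ beyond their spread. Within the other roles the most abundant members were Ddx58 (RIG-I, a sensor of viral RNA ends) at 17.0 ± 6.26 TPM, Oasl2 (an OAS-like protein) at 8.08 ± 3.34 TPM, Ifit3 at 7.38 ± 4.21 TPM, Usp18 (the protease that removes ISG15) at 5.55 ± 1.45 TPM and Cxcl9 (a chemokine for T cells) at 3.92 ± 2.92 TPM, all with n = 24. The spreads of neighbouring genes in this order overlap widely. Isg15, a ubiquitin-like modifier, was at 2.78 ± 1.21 TPM, and Mx1, an antiviral GTPase, at 1.22 ± 0.56 TPM.

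The 39 genes varied together from library to library. In the library CYP19A1 18-month replicate 3, all 39 lay above their own median over the 24 libraries, and in CYP19A1 18-month replicate 1, 37 did. At the other end, 1 of 39 did in CYP19A1 letrozole replicate 1 and 3 of 39 in CYP19A1 letrozole replicate 3. The tested genes as a whole shifted the same way to a smaller degree: of the 19325 tested genes, 69.2%, 78.4%, 19.4% and 35.5% lay above their own median in these 4 libraries, beside 100%, 94.9%, 2.56% and 7.69% of the members. CYP19A1 18-month replicate 1 held the highest level of 23 of the 39 genes, and CYP19A1 letrozole replicate 1 the lowest of 21. Replicates of one group could lie far apart: in the untreated Esr1 group at 20 months the counts were 35, 7 and 19 of 39. Summed TPM of 4 leukocyte markers (Ptprc, Cd52, Coro1a and Laptm5) moved in the same direction in these libraries, within a range of 36.9 to 150 over the 24. The sums were 150 and 106 in CYP19A1 18-month replicates 1 and 3, and 42.5 and 36.9 in CYP19A1 letrozole replicates 1 and 3. The order was not strict: Esr1 18-month replicate 2 and Esr1 20-month untreated replicate 1 had 124 and 122, each with 35 of 39 members above the median. Other measures differed too between CYP19A1 18-month replicate 1 and CYP19A1 letrozole replicate 1. The number of genes at 1 TPM or more was 17684 and 14410, epithelial markers summed to 614 and 57.9 TPM, T and NK cell markers to 88.0 and 7.85 TPM, and muscle markers to 3175 and 20592 TPM. The part of these measures in the members' levels was not tested. In tissue RNA, fewer cells of a type and less RNA per cell cannot be told apart.

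**Figure D1:**
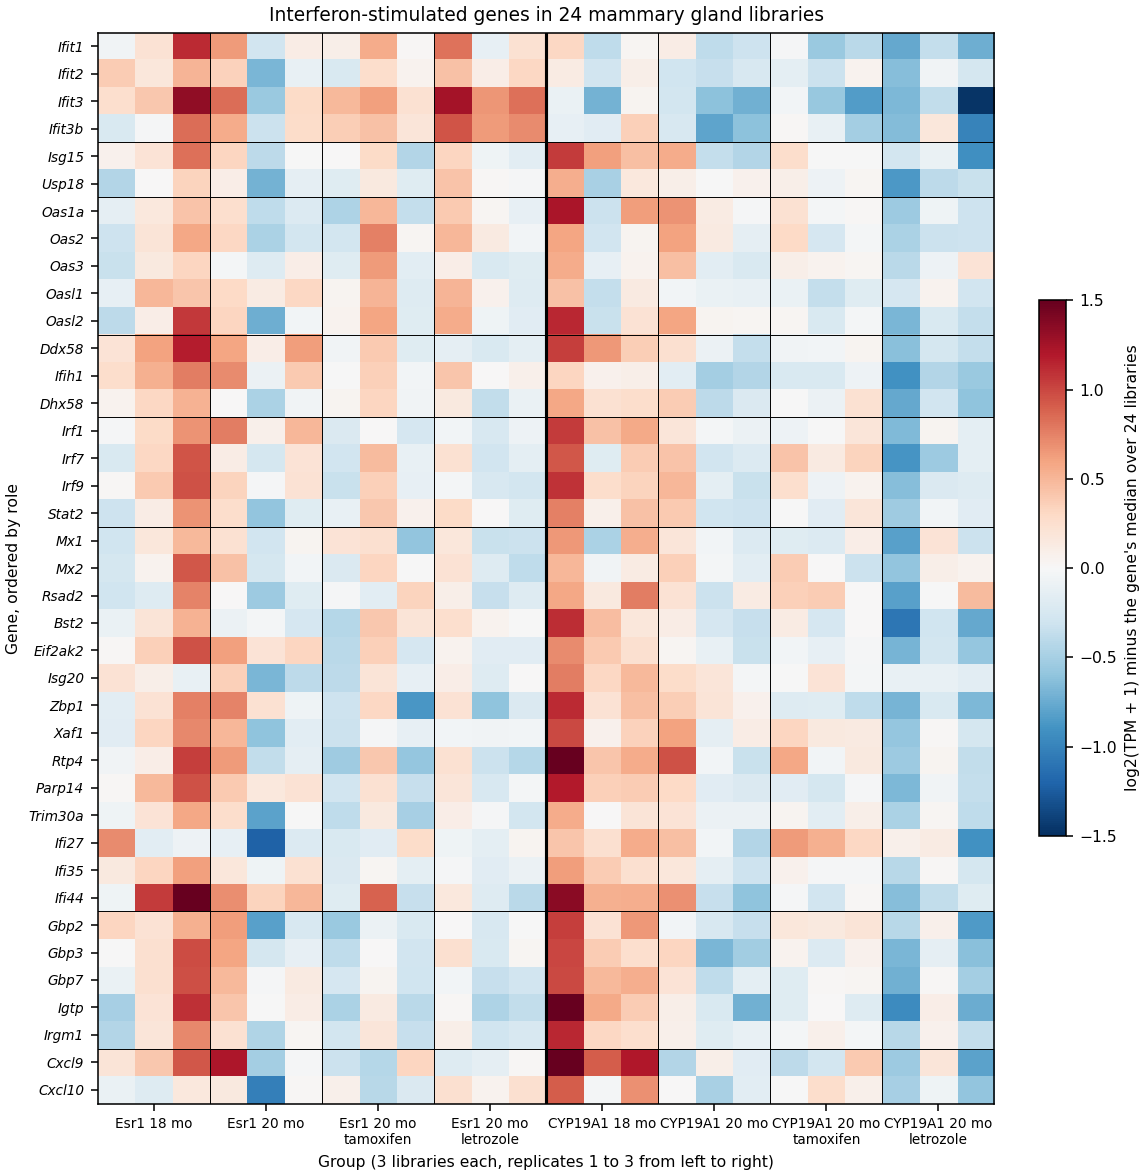
Level of each of the 39 genes (rows, by role) in each of the 24 libraries (columns, by group), as log2(TPM + 1) minus the gene's median over all libraries, with red above and blue below the median. Columns differ as wholes, such as the red column of CYP19A1 18-month replicate 1 with 37 of 39 genes above the median, while the Ifit rows are redder in the Esr1 columns to the left of the thick line.

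Several facts about the libraries bear on all that follows. Esr1 20-month untreated replicate 2 had 31.2% of its TPM in ribosomal RNA genes, including loci derived from ribosomal RNA that the table labels otherwise, against 0.022% to 3.67% in the other 23. Markers of skeletal muscle summed to 128 TPM in Esr1 18-month replicate 1 and 17.3 TPM in CYP19A1 18-month replicate 3, and to between 3175 and 24185 TPM in the other 22, so muscle RNA varied widely between the gland samples. Epithelial markers, which define the labelled tissue, summed to 57.9 to 637 TPM, and adipocyte markers to 213 to 2629 TPM. Mouse Esr1 had a median of 14.7 TPM in the Esr1 line (6.98 to 17.4) and 14.8 TPM in the CYP19A1 line (12.2 to 19.2), and mouse Cyp19a1 at most 0.27 TPM in any library, so neither level told the lines apart and the line labels were not checked by them. The same results without the 3 named libraries are given beside the counts, an alternative chosen after the data were seen.

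The first question was whether the members differ between the lines, with 12 CYP19A1 libraries against 12 Esr1 libraries averaged over 4 conditions (18 months, 20 months untreated, tamoxifen and letrozole). In all, 4 genes were lower in the CYP19A1 line and 0 were higher, at a Benjamini-Hochberg adjusted p under 0.05 in limma over all tested genes. They were 3 of the 4 listed genes of the IFIT family, and Ifih1, which encodes MDA5, a sensor of long double-stranded RNA. The IFIT family includes proteins that bind foreign RNA and block its translation. So 4 of 38 were lower, where 3.31% of all tested genes were. The median change over the 38 genes was -0.03 on the log2(TPM + 1) scale, beside 0.00 over all tested genes, with 26 of 38 negative. Without the 3 libraries that stand apart the count was 5, where 6.21% of all genes were lower. Over all genes, 54.5% of the calls were higher in the CYP19A1 line. That share was 41.5% when the most abundant genes were left out of the scaling.

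Ifit3, at chr19:34583119-34588982, showed the largest difference. In the Esr1 line it read 7.83, 8.77 and 17.6 TPM at 18 months, 12.2, 4.02 and 8.06 TPM at 20 months untreated, 9.39, 10.3 and 7.68 TPM with tamoxifen, and 16.6, 10.7 and 12.1 TPM with letrozole. In the CYP19A1 line it read 5.89, 3.51 and 6.60 TPM at 18 months, 5.11, 3.82 and 3.49 TPM at 20 months untreated, 6.2, 4 and 3.15 TPM with tamoxifen, and 3.62, 4.74 and 1.67 TPM with letrozole. The lines overlap through 1 Esr1 library, untreated 20-month replicate 2, which reads 4.02 TPM and is the one high in ribosomal RNA. The next lowest Esr1 library, at 7.68 TPM, lies above the highest CYP19A1 library, at 6.60 TPM. On the log2(TPM + 1) scale Ifit3 fell by 1.08 ± 0.17 (standard error), adjusted p = 0.00034. Over 34 alternative settings the adjusted p stayed between 3.7e-05 and 0.0016.

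Ifit3b, at chr19:34607530-34613403, lies beside Ifit3 and encodes a near copy of it. Its Esr1 libraries ran from 1.98 to 6.18 TPM with a median of 3.93, and its CYP19A1 libraries from 0.86 to 3.79 TPM with a median of 2.23. The ranges overlap, with the Esr1 libraries at 18 months (2.18, 2.67 and 5.64 TPM) reaching down among the CYP19A1 libraries of that age (2.42, 2.31 and 3.79 TPM). It fell by 0.67 ± 0.15, adjusted p = 0.0058. Since reads of such copies can be split between them, their sum is also given: Ifit3 plus Ifit3b averaged 14.4 ± 5.07 TPM (SD) over 12 Esr1 libraries and 6.45 ± 2.21 TPM over 12 CYP19A1 libraries. The sum ran from 6 to 23.2 TPM and from 2.53 to 10.4 TPM, so the lines overlap.

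Ifit1, at chr19:34640889-34650009, had Esr1 libraries from 1.76 to 6.32 TPM (median 2.78) and CYP19A1 libraries from 0.98 to 3.16 TPM (median 1.61). It fell by 0.57 ± 0.15, adjusted p = 0.022. The annotated span of Ifit1bl1, a related gene at 0.463 ± 0.160 TPM (n = 12) in the Esr1 line and too low to be tested, covers both Ifit1 and Ifit3b, so how reads were assigned among them is uncertain. Ifit2, at chr19:34550550-34576534 and the remaining listed gene of the cluster, ran from 2.41 to 6.81 TPM in the Esr1 line and from 2.52 to 4.96 TPM in the CYP19A1 line. Its change was -0.33 ± 0.11 with an adjusted p of 0.074, so it did not pass. Without Esr1 20-month untreated replicate 2, whose 2.41 TPM is its lowest value, Ifit2 passed, at -0.39 and adjusted p = 0.0090, and it also passed under both scalings (-0.40, adjusted p = 0.0073, and -0.33, adjusted p = 0.0053).

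Ifih1, at chr2:62595618-62646255, is on another chromosome. In the Esr1 line it read 13.2, 16.1 and 19.2 TPM at 18 months, 18.4, 10.2 and 14.6 TPM at 20 months untreated, 10.8, 14.2 and 10.5 TPM with tamoxifen, and 14.9, 10.9 and 11.5 TPM with letrozole. In the CYP19A1 line it read 13.9, 11.4 and 11.6 TPM at 18 months, 9.61, 7.34 and 7.74 TPM at 20 months untreated, 9.11, 9.08 and 10.3 TPM with tamoxifen, and 5.30, 7.76 and 7.06 TPM with letrozole. The groups overlap at 18 months and lie apart in each of the 20-month conditions. The gap is narrow untreated (10.2 against 9.61 TPM) and with tamoxifen (10.5 against 10.3 TPM). The share of all tested genes that lie apart with 3 against 3 libraries was not determined. Ifih1 fell by 0.54 ± 0.10, adjusted p = 0.00096. Of the other RNA sensors, Ddx58 had -0.20 ± 0.11 (adjusted p = 0.36) and Dhx58, which encodes LGP2, -0.08 ± 0.10 (adjusted p = 0.75).

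**Figure D2:**
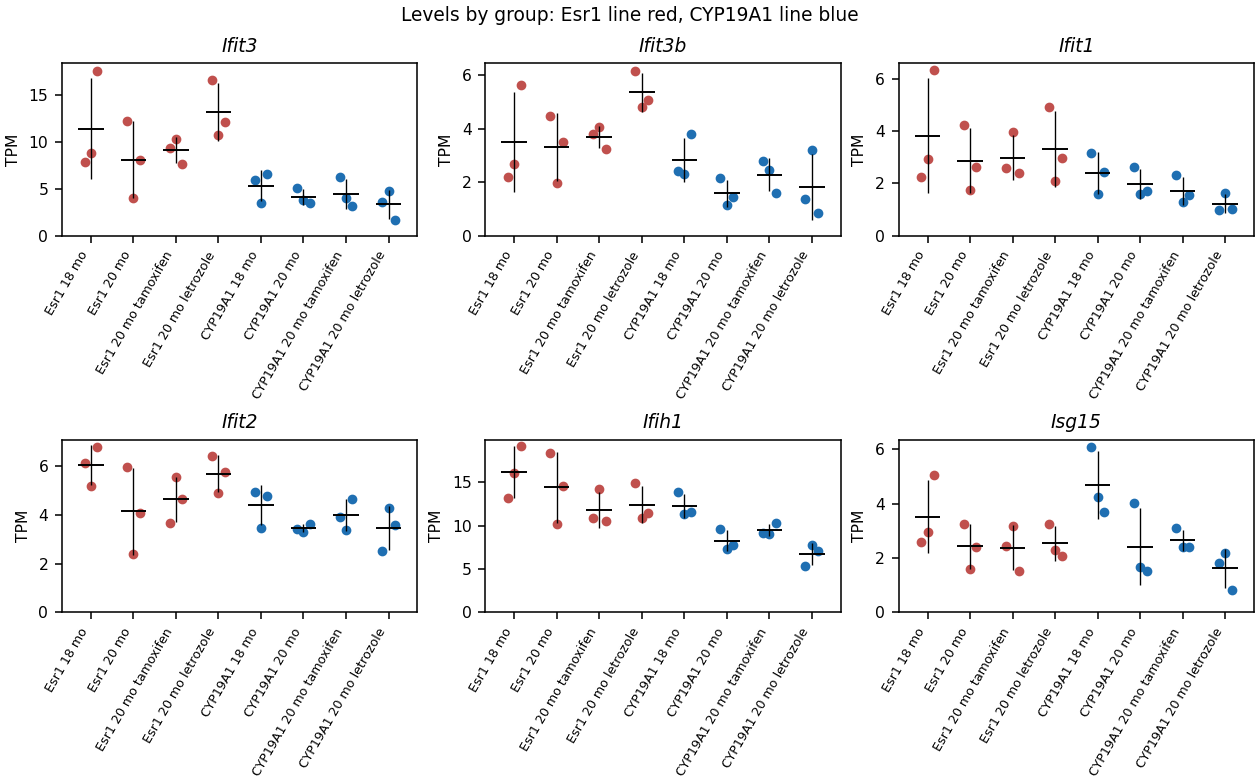
TPM of 6 genes in each library (points), by group, with the group mean (horizontal bar) and SD (vertical bar) of 3 libraries, the Esr1 line in red and the CYP19A1 line in blue, each axis starting at 0. Ifit3 shows Esr1 libraries from 4.02 to 17.6 TPM and CYP19A1 libraries from 1.67 to 6.60 TPM, while Isg15 spans 1.52 to 5.05 TPM and 0.81 to 6.09 TPM.

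The remaining 34 tested members did not pass between the lines. Isg15 averaged 2.72 ± 0.94 TPM (SD) over 12 Esr1 libraries and 2.84 ± 1.47 TPM over 12 CYP19A1 libraries, a change of -0.01 ± 0.14. Usp18 had -0.05 ± 0.12 and Oasl2 -0.08 ± 0.18. The transcription factors ranged from -0.05 to 0.00, with Irf1 at 0.00 ± 0.10 and Stat2 at -0.01 ± 0.13. The 5 immunity GTPases ranged from -0.13 to 0.12, the 2 chemokines from 0.05 to 0.09, and the 14 antiviral effectors from -0.31 to 0.27, with Ifi27 highest at 0.27 ± 0.15 (adjusted p = 0.36). Isg20, an exonuclease, had 0.23 ± 0.10 and passed only without Esr1 20-month untreated replicate 1 (0.30, adjusted p = 0.026). At an unadjusted p under 0.05 there were 7 members, the 4 called genes with Ifit2, Oasl1 and Isg20, so 7 of 38, beside 18.7% of all tested genes.

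**Figure D3:**
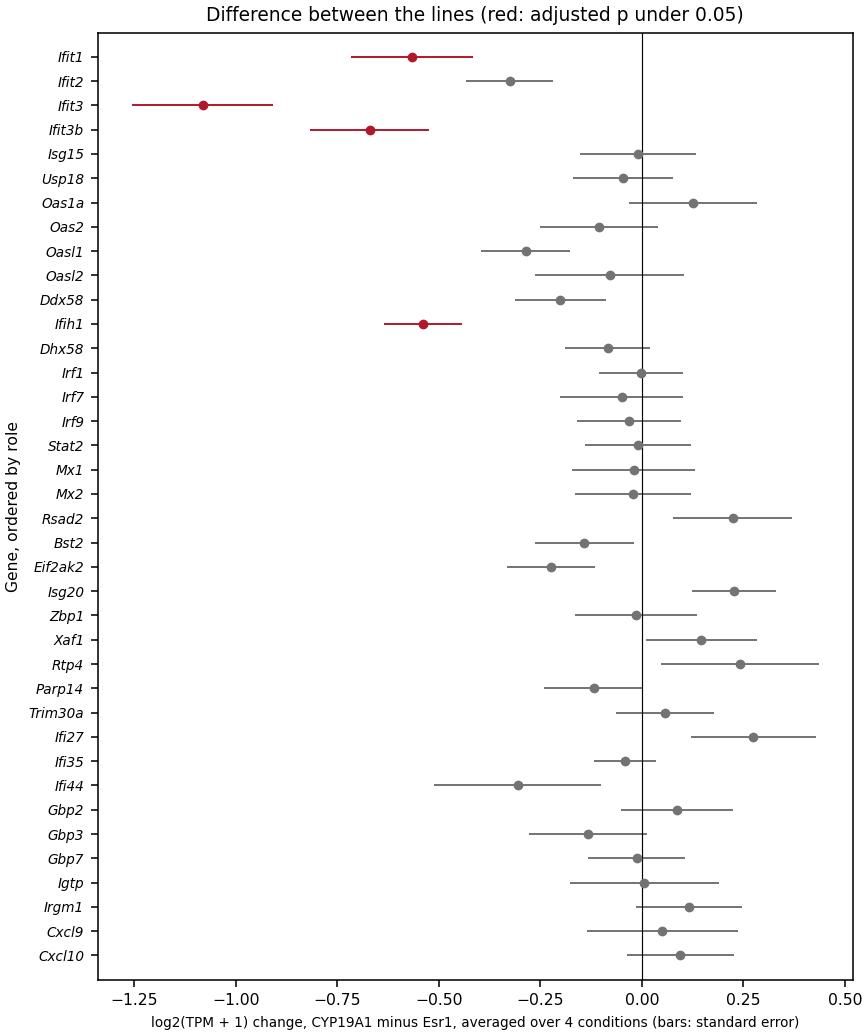
Change of each of the 38 tested genes between the lines, as log2(TPM + 1) in CYP19A1 minus Esr1 averaged over 4 conditions, with standard errors from limma as bars and genes by role. The red points, Ifit1, Ifit3, Ifit3b and Ifih1, lie at -0.54 to -1.08, and Isg15 lies at -0.01.

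No member had all 12 CYP19A1 libraries below all 12 Esr1 libraries, as 0.269% of all tested genes did. Without Esr1 20-month untreated replicate 2, Ifit3 did, as 0.419% of all genes did. Because the members rise and fall together across libraries, each gene was also set against the median of the 34 members outside the IFIT family and Ifih1 in the same library, a description chosen after the values were seen. Relative to it, Ifit3 ran from -0.14 to 0.92 in the Esr1 line and from -1.18 to -0.16 in the CYP19A1 line, with no overlap over 12 and 12 libraries. Ifit1 ran from -1.23 to -0.65 and from -1.89 to -1.30, again with no overlap. The share of all tested genes without overlap on this relative scale was not determined. Ifit3b ran from -1.29 to -0.28 and from -2.17 to -0.77, with overlap. Ifit2 ran from -0.96 to 0.02 and from -1.37 to -0.40, also with overlap. Ifih1 ran from 0.41 to 1.05 and from -0.05 to 0.52, with a small overlap. Isg15 ran from -1.49 to -0.94 and from -1.74 to -0.72, so the CYP19A1 range enclosed the other.

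**Figure D4:**
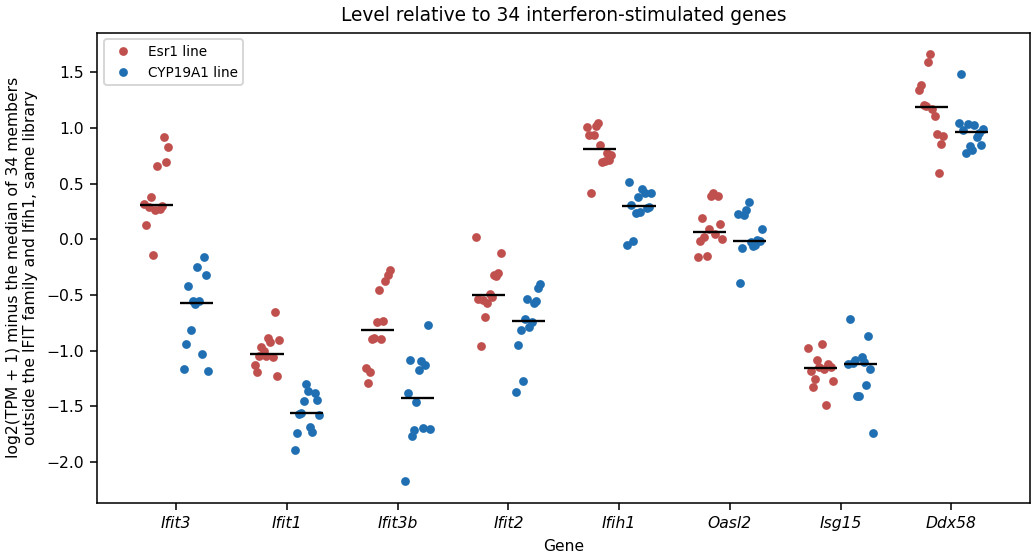
Level of 8 genes relative to the median of the 34 members outside the IFIT family and Ifih1 in the same library, in log2(TPM + 1) units, with the 12 Esr1 libraries in red, the 12 CYP19A1 libraries in blue and the median of each line as a bar. Oasl2, Isg15 and Ddx58 are themselves among the 34. On this scale, chosen after the values were seen, Ifit3 and Ifit1 do not overlap between the lines, at medians of 0.31 and -0.57 for Ifit3. The share of all tested genes without overlap on it was not determined, and in TPM no member was without overlap over all 24 libraries. Ifit3b and Ifit2 overlap between the lines, and Isg15 has medians of -1.16 and -1.12.

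Cell-type markers also differed between the lines. All 8 macrophage markers had negative values, with 0 called, at a median of -0.27, and their sums ran from 295 to 945 TPM in the Esr1 line and from 171 to 686 TPM in the CYP19A1 line. Called higher were 2 of 4 endothelial markers (Kdr by 0.51 ± 0.11 and Emcn by 0.60 ± 0.13), and 2 of 6 epithelial markers lower (Krt14 by -0.72 ± 0.17 and Krt5 by -0.69 ± 0.20). All 4 leukocyte markers were negative with 0 called, and their sums ran from 52.4 to 124 TPM and from 36.9 to 150 TPM. All 8 tested T and NK cell markers were negative as well with 0 called, and 4 of 6 B and plasma cell markers, also with 0 called. Of 5 tested dendritic cell markers, Siglech was higher (0.53 ± 0.12, adjusted p = 0.0079) and Itgax lower (-0.62 ± 0.18, adjusted p = 0.042). Markers of lymph node stroma had a median sum of 128 TPM in the Esr1 line and 7.63 TPM in the CYP19A1 line, and 2 of 5 were lower. The high sums were almost all Glycam1, such as 3458 of 3466 TPM in Esr1 20-month untreated replicate 2. They therefore do not measure lymph node stroma by itself. Ccl21a, a chemokine of lymph node stroma, ran from 0.62 to 16.3 TPM and from 0 to 2.76 TPM, a change of -1.39 ± 0.30 (adjusted p = 0.0057). Glycam1, which lymph node vessels and milk-producing epithelium both make, changed by -3.52 ± 0.99 (adjusted p = 0.035). Of the markers on these lists only Ccl21a was at 0 in any library. Whether these differences have a part in those of the IFIT genes and Ifih1 was not tested.

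Next, the line difference was taken within each condition, with 3 libraries against 3. These differences are parts of the average above and not independent of it. At 18 months 0 of 38 members passed in limma, where 1.36% of all genes did. An unadjusted p under 0.05 was found for 4 of them, beside 8.38% of all genes, and the smallest were Ifit3 at -0.92 ± 0.35 (adjusted p = 0.34) and Cxcl9 at 0.84 ± 0.37 (adjusted p = 0.51). With tamoxifen 0 passed, where 1.01% of all genes did, and 1 had an unadjusted p under 0.05, beside 7.86%. The smallest were again Ifit3, at -0.93 ± 0.35 (adjusted p = 0.41), and then Ifit1 at -0.55 ± 0.30 (adjusted p = 0.73). Of all calls, 66% were higher in CYP19A1 at 18 months and 65.1% with tamoxifen, but 48.7% and 47.2% when the most abundant genes were left out of the scaling.

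At 20 months without drug, 1 member was lower in the CYP19A1 line, where 3.16% of all genes were. It was Ifih1, at -0.71 ± 0.19, adjusted p = 0.036. The count was 2 without the 3 libraries that stand apart, where 5.82% of genes were lower. Ifih1 lost its call without CYP19A1 replicate 2, CYP19A1 replicate 3, Esr1 replicate 3 or Esr1 replicate 1 of this age, with adjusted p-values of 0.083 to 0.15. Without Esr1 replicate 1 the 1 member called was Isg20, which was higher by 0.68 (adjusted p = 0.025). Scaling raised the count. It was 3 after rescaling without the most abundant genes, with Ddx58 (-0.56) and Eif2ak2 (-0.58) beside Ifih1, and 4 with median-ratio scaling, which added Irf1 (-0.43). Ifit3 had -0.73 ± 0.35 (adjusted p = 0.23) and Ifit3b -0.72 ± 0.29 (adjusted p = 0.16).

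With letrozole, 2 members were lower in the CYP19A1 line, where 0.549% of all genes were. Ifit3 fell by 1.75 ± 0.35 (adjusted p = 0.012), from 16.6, 10.7 and 12.1 TPM to 3.62, 4.74 and 1.67 TPM. Ifit3b fell by 1.26 ± 0.29 (adjusted p = 0.042), from 6.18, 4.82 and 5.09 TPM to 1.37, 3.20 and 0.86 TPM. For both genes the groups do not overlap, and the share of all tested genes that do the same was not determined. Ifih1 followed at -0.80 ± 0.19 (adjusted p = 0.052), and 37 of 38 changes were negative, with a median of -0.30 beside -0.07 over all genes. The count of 2 became 3 without the libraries that stand apart, where 1.27% of genes were lower. It was 0 without Esr1 letrozole replicate 1 or without CYP19A1 letrozole replicate 3, and 1 without Esr1 letrozole replicate 2, Esr1 letrozole replicate 3 or CYP19A1 letrozole replicate 1. Macrophage markers summed to 171 to 345 TPM in the CYP19A1 letrozole libraries and to 390 to 673 TPM in the Esr1 ones, and their part was not tested.

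The second question was how the members change from 18 to 20 months, which in these mice also means 2 further months of transgene induction. In the CYP19A1 line 6 of 38 members were lower at 20 months and 0 higher, where 6.45% of all genes were lower. They were Cxcl9, Ddx58, Ifi35, Gbp7, Igtp and Irf1. Of the 38 changes 37 were negative, with a median of -0.50 beside -0.23 over all genes. Both scalings moved the median of all genes close to 0 (-0.02 under each), and the members' median was then -0.30 or -0.27. By group, the 5 immunity GTPases had a median of -0.84 with 2 called, the chemokines -1.13 with 1 of 2 called, the transcription factors -0.53 with 1 of 4, and the IFIT family -0.27 with 0 of 4.

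Cxcl9 read 14.2, 6.39 and 8.03 TPM at 18 months and 1.89, 3.18 and 2.49 TPM at 20 months, without overlap, and fell by 1.53 ± 0.37 (adjusted p = 0.021). Ddx58 read 30.8, 23.2 and 19.1 TPM and then 17.3, 13.5 and 11.03 TPM, and fell by 0.76 ± 0.22 (adjusted p = 0.041). Ifi35, a partner of N-myc interactor, read 27.2, 22.8 and 20.5 TPM and then 19.5, 15.7 and 13.7 TPM, and fell by 0.51 ± 0.15 (adjusted p = 0.042). Each of these genes, and also Gbp7, Igtp and Irf1, lay lower in every 20-month library of this line than in every 18-month one. This does not mark out the called genes. Members that were not called did the same, among them Bst2 (27.5, 17.2 and 13.9 TPM, then 13.3, 10.1 and 9.39 TPM), Eif2ak2 and Irgm1. Others, such as Isg15, overlapped. The share of all tested genes that lay lower without overlap was not determined. Of the tested genes, 61.8% to 78.4% lay above their own median in the 18-month libraries, and 29.3% to 58.1% in the 20-month ones. Gbp7, a guanylate-binding GTPase, read 22.9, 15.8 and 16.6 TPM and then 12.8, 8.17 and 9.85 TPM, and fell by 0.78 ± 0.24 (adjusted p = 0.044). Igtp, an immunity-related GTPase, read 32.7, 14.4 and 12.5 TPM and then 10.03, 7.82 and 5.28 TPM, with CYP19A1 18-month replicate 1 far above the rest. Irf1 read 47.5, 30.9 and 33.9 TPM and then 25.7, 22.1 and 21.1 TPM. The last 2 genes had adjusted p-values of 0.049 and 0.050, just under the threshold.

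This count rested on single libraries. It was 0 without CYP19A1 18-month replicate 1 or without 20-month replicate 3, 1 without 20-month replicate 2, 2 without 18-month replicate 2, and 14 without the libraries that stand apart, where 20% of all genes were lower. It was 1 after rescaling without abundant genes and 3 with median-ratio scaling. Of the calls over all genes, 31.8% were higher at 20 months, but 79.7% and 78.5% under those scalings. T and NK cell markers moved with it: all 8 tested of 10 were called lower, at a median of -1.28, and their sums were 37.9 to 88.0 TPM at 18 months and 10.2 to 19.3 TPM at 20 months. Macrophage marker sums were 460 to 686 TPM at 18 months and 236 to 456 TPM at 20 months. B and plasma cell sums were 106 to 110 TPM and then 51.6 to 74.3 TPM, and dendritic cell sums 71.6 to 91.9 TPM and then 56.8 to 68.6 TPM. The sums of these 3 lists do not overlap between the ages, with 0 of their markers called. How often 3 against 3 libraries lie apart over all tested genes was not determined. Single markers overlapped in some cases, as Csf1r did (35.3, 30.0 and 31.9 TPM, then 35.0, 26.2 and 21.2 TPM). Others did not, as Jchain, which made up most of the B and plasma cell sums (101, 98.8 and 95.3 TPM, then 44.5, 65.2 and 48.0 TPM). The share of TPM in mitochondrial genes was 13.7% to 17.5% at 18 months and 21.0% to 27.9% at 20 months. The muscle markers were higher at 20 months, with sums of 17.3 to 5196 TPM and then 14123 to 24185 TPM. No T or NK marker was at 0 in any library, and the part of these measures in the change was not tested.

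In the Esr1 line 0 of 38 members passed between 18 and 20 months in limma, where 0.00517% of all genes did. An unadjusted p under 0.05 was found for 3 of them, beside 6.28% of all genes. The 2 smallest were Ifit2 at -0.51 ± 0.21 and Dhx58 at -0.47 ± 0.21, both with an adjusted p of 0.73. In all, 36 of 38 changes were negative, with a median of -0.28 beside -0.14 over all genes. The difference between the lines in this change was itself tested, and 0 members passed, where 0.00517% of all genes did. An unadjusted p under 0.05 was found for 3 of them, beside 8.55% of all genes, led by Irf1 at -0.79 ± 0.29 (adjusted p = 0.47) and Cxcl9 at -1.25 ± 0.53 (adjusted p = 0.53). The lines are thus not shown to differ in the age change of any member.

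The third question was the response to each drug, given as the difference from the untreated 20-month group of the same line. Tamoxifen and letrozole share those untreated libraries. In the Esr1 line tamoxifen changed 0 of 38 members in limma, where 1.55% of all genes passed, and 2 had an unadjusted p under 0.05, beside 18.4%. Irf1, at 38.9, 23.9 and 32.3 TPM untreated, read 19.2, 22.6 and 18.8 TPM with tamoxifen, a change of -0.60 ± 0.21 (adjusted p = 0.13). Eif2ak2, the kinase PKR that shuts down translation on double-stranded RNA, had -0.48 ± 0.22 (adjusted p = 0.24). Irf1 passed after rescaling (-0.65, adjusted p = 0.018), with median-ratio scaling (-0.65, adjusted p = 0.0073) and without the 3 libraries that stand apart (-0.79, adjusted p = 0.048), and Eif2ak2 with median-ratio scaling alone (-0.52, adjusted p = 0.041). In the CYP19A1 line tamoxifen changed 0 members, where 0.160% of all genes passed. 0 members had an unadjusted p under 0.05, beside 4.38%, and the smallest were Ifi27 at 0.51 ± 0.31 and Zbp1, a sensor of Z-form nucleic acid, at -0.46 ± 0.30, both with an adjusted p of 1. The median member change was 0.07, but -0.01 under both scalings.

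With letrozole in the Esr1 line 0 of 38 members passed in limma, where 8.65% of all genes did, and 3 had an unadjusted p under 0.05, beside 25.9%. Irf1 read 21.9, 18.9 and 21.3 TPM, a change of -0.57 ± 0.21, and Ddx58 read 22.4, 15.6 and 22.9 TPM untreated and 13.1, 12.2 and 13.0 TPM with the drug, a change of -0.61 ± 0.22, each with an adjusted p of 0.091. Both were lower after rescaling (adjusted p = 0.013 and 0.019), with median-ratio scaling (0.0055 and 0.010) and without the 3 libraries that stand apart (0.026 and 0.022). Median-ratio scaling also called Eif2ak2 lower (-0.48) and Ifit2 higher (0.45), 4 members in all, and without Esr1 20-month untreated replicate 1 the 1 member called was Ifit2 (0.68, adjusted p = 0.030). The 4 IFIT genes had positive values of 0.16 to 0.72, with 0 called, and the 38 changes were split into 19 positive and 19 negative. Of all calls 32.9% were higher with letrozole, and 45.4% with median-ratio scaling. In the CYP19A1 line 0 members passed, where 0.0207% of all genes did. An unadjusted p under 0.05 was found for 4 of them, beside 3.79%, led by Zbp1 at -0.75 ± 0.30 and Usp18 at -0.58 ± 0.25, both with an adjusted p of 1. There 37 of 38 changes were negative, with a median of -0.29 beside -0.10 over all genes.

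The difference between the lines in each drug response was tested too. For tamoxifen 0 members passed, where 0% of all genes did, and 1 had an unadjusted p under 0.05, beside 10.5%. It was Irf1 at 0.61 ± 0.29 (adjusted p = 0.48), followed by Eif2ak2 at 0.55 ± 0.31. For letrozole 0 members passed, where 0% of all genes did, and 3 had an unadjusted p under 0.05, beside 11.8%. The smallest were Usp18 at -0.97 ± 0.35 (adjusted p = 0.34) and Bst2, a protein that tethers virus particles to the cell, at -0.78 ± 0.35 (adjusted p = 0.39). Ifit3 had -1.02 ± 0.49 (adjusted p = 0.43), so its response to letrozole is not shown to differ between the lines.

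**Figure D5:**
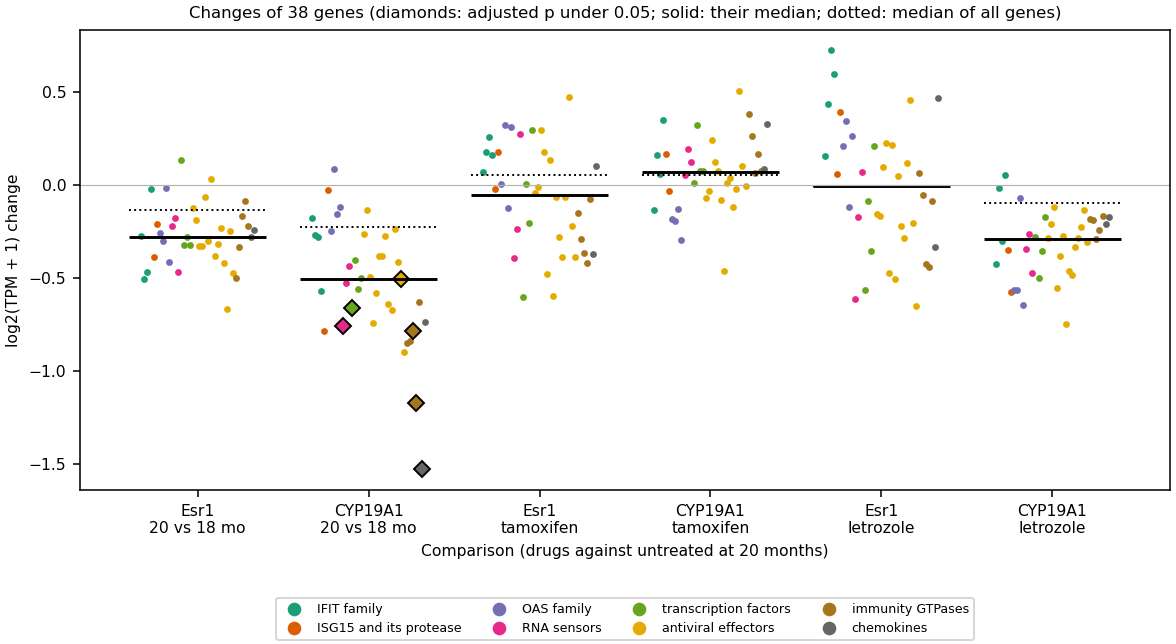
Change of each of the 38 tested genes in log2(TPM + 1) for age and for each drug in each line, coloured by role, with diamonds for adjusted p under 0.05, a solid bar at the median of the 38 genes and a dotted bar at the median of all tested genes. The 6 diamonds all lie in the age comparison of the CYP19A1 line, where the solid bar is at -0.50 and the dotted bar at -0.23.

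The wider pathway was read from lists of genes outside the 39. Of 20 interferon ligand genes only Ifnk, interferon kappa of keratinocytes, was abundant enough to be tested, at a mean of 1.45 TPM, with a line change of -0.17 ± 0.12. Ifnb1 was listed at 0 in 23 of 24 libraries, and Ifng averaged 0.12 TPM with a highest value of 0.49 TPM. The receptors were all present, with means of 15.7 TPM for Ifnar1, 27.0 TPM for Ifnar2, 50.2 TPM for Ifngr1 and 21.6 TPM for Ifngr2. None of the 11 genes on the list of receptors and JAK-STAT signalling passed between the lines, nor did any of 16 tested nucleic acid sensing genes or 14 tested genes that restrain the response.

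Over all tested genes, 3.96% were higher and 3.31% lower in the CYP19A1 line. Among 34 tested further effectors 1 was higher and 2 lower, shares near those of all genes. Parp9 and Dtx3l, whose proteins form a complex that modifies histones and viral proteins, fell by 0.59 ± 0.10 (adjusted p = 0.00043) and by 0.35 ± 0.10 (adjusted p = 0.036). Cd274, which encodes the checkpoint ligand PD-L1, rose by 0.41 ± 0.12 (adjusted p = 0.040). The interferon-gamma GTPases went both ways, with 1 of 13 higher and 2 lower. Gbp6 rose by 1.64 ± 0.17 (adjusted p = 1.9e-06), with CYP19A1 libraries from 5.14 to 22.03 TPM and Esr1 libraries from 0.63 to 5.63 TPM. Gbp9 fell by 0.94 ± 0.16 (adjusted p = 0.00052) and Gbp10 by 0.57 ± 0.17 (adjusted p = 0.045). These 3 are close relatives, and reads could be split among them. Of 10 genes of class I antigen presentation, B2m was lower, by -0.53 ± 0.16 (adjusted p = 0.045). The adjusted p of Dtx3l, Cd274, Gbp10 and B2m crossed 0.05 in 16 of 34, 23 of 33, 22 of 33 and 21 of 34 alternative settings.

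Between 18 and 20 months in the CYP19A1 line, 9 of the 10 class I genes were called lower, where 6.45% of all genes were, with a median of -1.23. They include B2m at -1.18 ± 0.32 (adjusted p = 0.028), the immunoproteasome gene Psmb9 at -1.28 ± 0.22 (adjusted p = 0.0097) and the peptide transporter gene Tap1 at -1.41 ± 0.31 (adjusted p = 0.016), the last 2 named after their values were seen. Also lower were 7 of 34 further effectors and 4 of 16 sensing genes. Near the share of all genes were 1 of 13 interferon-gamma GTPases (Ifi47) and 1 of 11 receptor and JAK-STAT genes (Ifngr1). These counts rested on single libraries as the members' count did. Without CYP19A1 20-month replicate 3 all of them were 0. Without CYP19A1 18-month replicate 1 the class I count was 1 and the others 0, and without 20-month replicate 2 the class I count was 5. The class I count was 6 with median-ratio scaling and 0 with only the compared groups fitted. The cell-type and muscle marker sums given for this comparison apply here too.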

How the data were processed

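Gene-level TPM for 24 stranded, rRNA-depleted total RNA libraries were deposited by the authors, who used FastQC 0.11.9, Trim Galore 0.6.5, STAR 2.7.9a and RSEM 1.3.1 with build mm10, per the submitters' processing notes; the role of each is not given there. TPM keeps no sequencing depth, so depth is unknown and no counting interval is given. Values are given to 2 decimals. log2(TPM + 1) was fitted with limma 3.58.1 (R 4.3.3) with 8 group means, a mean-variance trend and robust variances, over the 19325 genes that reached 1 TPM in 3 or more libraries; p-values were Benjamini-Hochberg adjusted over all of them, and a gene counts as called at an adjusted p under 0.05. All fold changes use this log scale, and the pseudocount shrinks those of low genes. Members are described by role; those called in any comparison, the most abundant of each role and, where none was called, the 2 with the smallest p are named, and pathway genes where called between the lines or for ligands and receptors. An item of these lists is not reported here. The members and lists were chosen with earlier results of these data known. Promoter windows came from RefSeq (GRCm38.p6), with none printed for 9 members. Alternatives covered the pseudocount, filters, scalings, the model and left-out libraries.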

Additional observations from a re-analysis of the deposited data

How the results depend on the processing

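The 4 members lower in the CYP19A1 line stayed 4 or 5 without any one library (the range over left-out libraries), and 4 with the replicate block. The count was 2 when a mean of at least 5 TPM was required, since Ifit1 and Ifit3b were then not tested. Within conditions, where each group holds 3 libraries, counts were less stable. At 18 months median-ratio scaling gave 1 in place of 0. At 20 months untreated, 1 became 0 with no filter or with only the compared groups fitted, 3 after rescaling without the 58 most abundant genes, 4 with median-ratio scaling, 2 without the 3 libraries that stand apart, and 0 to 1 over left-out libraries. With letrozole, 2 became 1 with no filter, 1 at a mean of at least 5 TPM, 1 with the replicate block, 0 with only the compared groups fitted, and 0 to 2 over left-out libraries. For age in the CYP19A1 line, 6 became 3 with a pseudocount of 0.1 TPM, 1 with no filter, 1 after rescaling, 3 with median-ratio scaling, 1 with the replicate block, 0 with only the compared groups fitted, 14 without the 3 libraries, and 0 to 6 over left-out libraries. In the Esr1 line, 0 became 1, 2 and 1 for tamoxifen and 2, 4 and 2 for letrozole (rescaling, median-ratio scaling, without the 3 libraries), and 0 to 1 for letrozole over left-out libraries. The cause of these changes was not tested. Over 27 named gene changes and 737 alternative values, 0 changed sign. The replicate numbers showed no clear pairing of the samples. Over 84 same-numbered pairs the correlation of deviations from group means ran from -0.41 to 0.30 (median 0.00). Over 168 different-numbered pairs it ran from -0.40 to 0.55 (median 0.00). Of 24 samples, 11 correlated best with their own number. The replicate block changed no other count of members by over 1.5 times.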

Other observations

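The genes around the IFIT cluster and Ifih1 were examined after the line differences of those members were seen. Within 500000 bases of the cluster on chromosome 19, 9 genes that are not members were tested, and 3 were lower in the CYP19A1 line with 0 higher, where 3.31% of all tested genes were lower. Of the 9 changes 8 were negative. Fas, a death receptor gene, averaged 10.6 ± 2.10 TPM (SD) over 12 Esr1 libraries and 6.44 ± 0.68 TPM over 12 CYP19A1 libraries, a change of -0.63 ± 0.08 (limma adjusted p = 1.3e-05). Acta2, smooth muscle actin, was at 164 ± 43.0 TPM and 118 ± 30.7 TPM, a change of -0.48 ± 0.12 (adjusted p = 0.012). Lipm, a lipase gene, was at 4.88 ± 3.02 TPM and 2.53 ± 1.43 TPM, a change of -0.70 ± 0.20 (adjusted p = 0.035), and missed the threshold in 14 of 33 alternative settings. Among those that did not pass, Ankrd22 had the most negative value, -0.70 ± 0.25 (adjusted p = 0.11), and Pank1, a pantothenate kinase gene, the only positive one, 0.27 ± 0.17 (adjusted p = 0.45). Around Ifih1 on chromosome 2, 1 of 4 tested genes was lower: Gca, which encodes grancalcin, at -0.39 ± 0.10 (adjusted p = 0.014). Dpp4 and Fap, in the same window, had -0.14 ± 0.15 (adjusted p = 0.69) and 0.11 ± 0.12 (adjusted p = 0.74).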
